A study of Ovis aries with 30 samples.

Results

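Respiratory chain genes were measured in sheep epicardial adipose tissue (EAT), the fat depot that lies on the heart muscle, on 30 one-colour oligonucleotide arrays. The probes were those whose gene name began with NDUF, SDH, UQCR, COX and a digit, or ATP5, or whose description named NADH dehydrogenase, succinate dehydrogenase, ubiquinol-cytochrome, cytochrome c oxidase or ATP synthase. They were 10 of the 15008 probes that are no control, and represented 9 genes. Of these, 5 matched by gene name and 8 by description. The 10 probes comprised 2 for complex I, 1 for complex II, 1 for complex IV, 5 for complex V and 1 for an assembly factor, and none was found for complex III or for a subunit encoded in mitochondrial DNA.

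The tissue came from 8 Control fetuses and 6 CORT fetuses at term, and from 7 Control lambs and 9 CORT lambs at 2 weeks of age. Control ewes received no cortisol. CORT ewes were infused with cortisol from gestational day 115 until term, at 1 mg/kg/day for the fetuses and at 0.5 mg/kg/day for the lambs, so the dose differed between the ages. Per the study, the ewes of the lambs were infused overnight only, whereas its 1 mg/kg/day model used continuous infusion. The infusion was given to the ewe, and the lambs were not treated after birth. Per the study, 8 CORT ewes delivered 9 lambs, which is the number of CORT lambs here, so 2 of these shared a ewe. The labels do not say which animals share a ewe. The 7 control ewes delivered 8 lambs, per the study, so 2 of the 7 Control lambs may also have shared a ewe. Each animal was taken as 1 replicate, so the tests on lambs treat any twins as independent.

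The respiratory chain lies in the inner mitochondrial membrane. Complexes I and II pass electrons from NADH and succinate to ubiquinone, complex III hands them to cytochrome c, and complex IV transfers them to oxygen. The proton gradient built on the way drives ATP synthase, or complex V, through its ring of c subunits, and in brown fat the uncoupling protein UCP1 lets protons return without ATP synthesis. Fat of newborn lambs is known to be rich in brown adipocytes.

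The probes stand for these genes as follows. NDUFA12 and NDUFA2 are accessory subunits of complex I, and the second was known only by the description of a sequence cluster. SDHD is a membrane anchor of complex II. Its probe carries the name of a separate entry in the RefSeq gene table of assembly ARS-UI_Ramb_v3.0, so SDHD and a near-identical copy could not be told apart. COX5A is a nuclear-encoded subunit of complex IV, and COX15 is no subunit but an enzyme that makes heme A for it. ATP5MC1 (formerly ATP5G1, 2 probes) and ATP5MC2 (formerly ATP5G2) encode the same mature subunit c with different import sequences. ATP5PO and ATP5PD encode subunits of the peripheral stalk that holds the catalytic head of ATP synthase still. The RefSeq table matched 9 of the 10 probes.

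The sequences of 4 probes that bear on the results are shown 5′ to 3′ as deposited. They are the complex I probe with the largest change, the assembly factor, the brightest ATP5MC1 probe with its stop codon TGA in capitals, and SDHD with capitals on a stretch shared with the reverse complement of another SDHD probe.
NDUFA12: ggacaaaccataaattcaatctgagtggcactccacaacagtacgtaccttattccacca
COX15: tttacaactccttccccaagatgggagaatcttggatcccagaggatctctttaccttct
ATP5MC1 probe 1: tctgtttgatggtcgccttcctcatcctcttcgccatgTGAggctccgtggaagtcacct
SDHD: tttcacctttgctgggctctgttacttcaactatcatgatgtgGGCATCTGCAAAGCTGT

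The strand of a probe decides what it can measure, because the labelled RNA is complementary to the messenger and binds only probes of the messenger's own strand. The ATP5PD probe is shown because it ran the other way. On its reverse complement an ATG, in capitals below and as CAT on the deposited strand, opened a frame of 15 codons, the ATG included, with 0 stop codons. That frame has the known start of the subunit d protein. The values of this probe were therefore not taken as a measure of ATP5PD messenger, and what it bound was not tested.
ATP5PD as deposited: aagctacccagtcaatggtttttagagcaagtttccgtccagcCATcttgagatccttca
ATP5PD reverse complement: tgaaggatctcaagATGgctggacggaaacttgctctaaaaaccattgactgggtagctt
The polyadenylation hexamer AATAAA was found as deposited in 2 of the 10 probes, ATP5MC2 and ATP5PO, and in 5.63% of all probes, and its reverse complement TTTATT was found in 0 of 10 and in 3.7%.

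Values are log2 intensities after background correction and quantile normalization over the 30 arrays. The median raw foreground of an array lay between 131.6 and 240.4 units, and 70.4% to 83.5% of spots were well above background. Of the 15008 probes, 13077 were bright enough to test, among them all 10 respiratory chain probes. All 10 were well above background on every array, apart from COX5A, which was so in 8 of 9 CORT lambs. Fetal and lamb arrays were on separate slides, so age and slide cannot be told apart, whereas each slide held both treatments.

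The comparison of Control lambs with Control fetuses asked how the chain changes from term to 2 weeks after birth. Both complex I probes, the complex II probe, 3 of the 5 complex V probes and COX15 were lower in the lambs. At an adjusted p under 0.05 in limma, 7 of the 10 probes fell and 0 rose, against 22% and 19.3% of all tested probes. The median change of the 10 probes was -0.64 on the log2 scale, and 9 of 10 were negative. Without the antisense ATP5PD probe the median was -0.77 and 9 of 9 were negative. Over all 13077 probes the median was -0.01, with 52.3% negative. The largest falls were those of ATP5MC1, NDUFA12 and ATP5PO. In whole tissue, fewer cells of a type and less RNA per cell cannot be told apart.

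**Figure D1:**
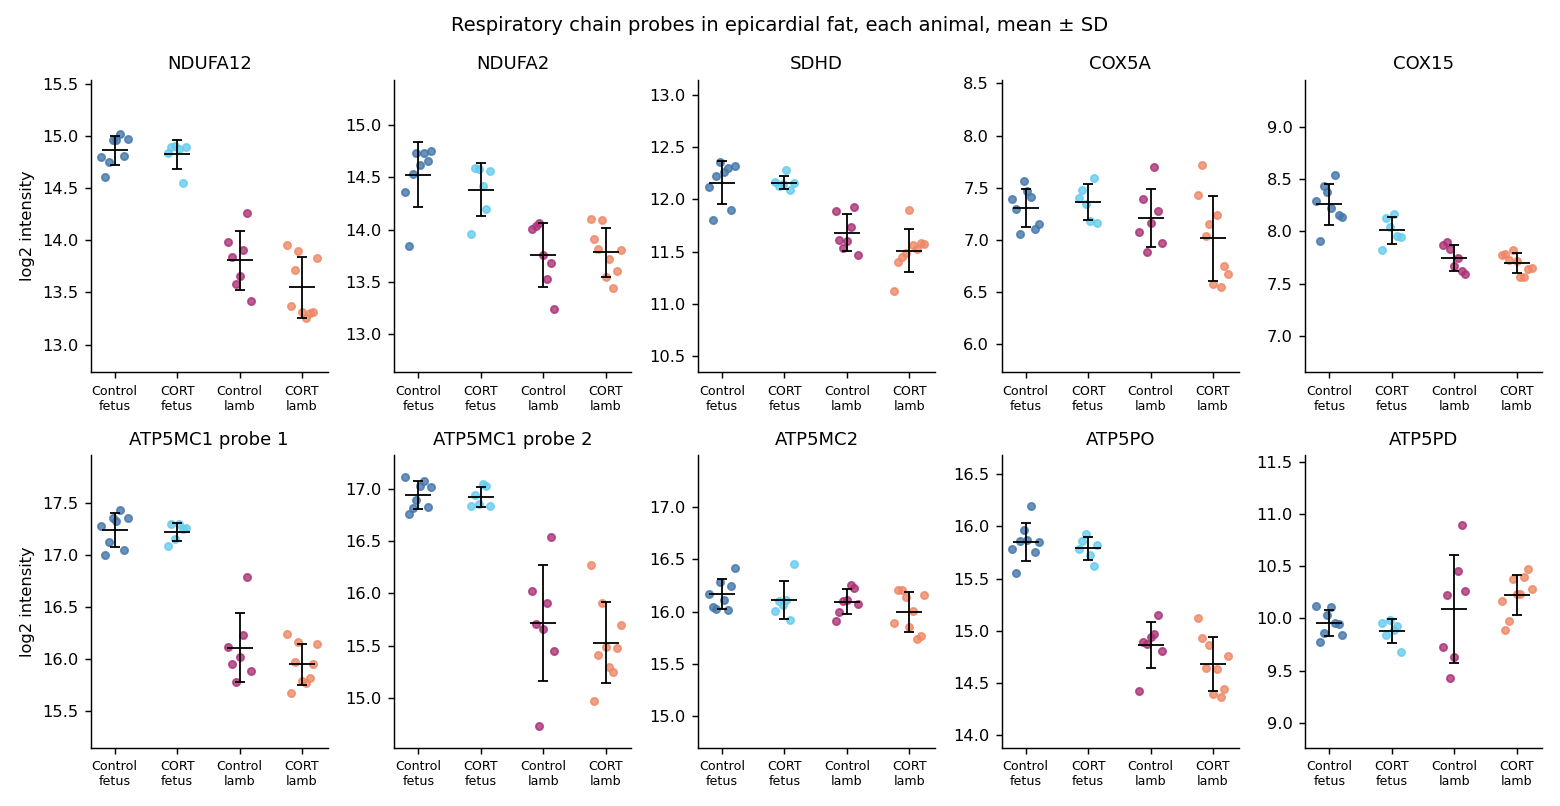
Log2 intensity of the 10 respiratory chain probes in each animal (points) of the 4 groups, with mean and SD (bars). All panels span the same number of log2 units but are centred on their own values, and NDUFA12, ATP5PO, COX15 and both ATP5MC1 probes show Control lambs entirely below Control fetuses.

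For 5 of the 10 probes the lambs did not overlap the fetuses and lay below them, against 8.79% of all tested probes, and for 0 of 10 they lay entirely above, against 6.97%. The 5 were NDUFA12, COX15, ATP5PO and the ATP5MC1 pair.

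In complex I, both probes fell. NDUFA12 measured 14.61, 14.88 and 15.02 (lowest, median and highest log2 intensity) in the 8 Control fetuses and 13.42, 13.84 and 14.26 in the 7 Control lambs. Every lamb was below every fetus. The change was -1.05 ± 0.11 (SE, adjusted p = 1.39e-06 in limma), a 2.08-fold lower level with a 95% interval of 1.77 to 2.43. NDUFA2 measured 13.84, 14.64 and 14.76 in Control fetuses and 13.24, 13.76 and 14.06 in Control lambs. The groups overlapped only through Control fetus 2, the lowest fetus. The change was -0.77 ± 0.15 (SE, adjusted p = 0.000536 in limma).

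In complex II, the SDHD probe fell by a smaller amount. It measured 11.80, 12.24 and 12.36 in Control fetuses and 11.47, 11.61 and 11.93 in Control lambs, and the groups overlapped although all 7 lambs lay below the fetal mean. The change was -0.48 ± 0.10 (SE, adjusted p = 0.000818 in limma), or 1.39-fold. A brighter SDHD probe outside the rule, named only by a sequence cluster, changed by -0.74 ± 0.11 without overlap (SE, adjusted p = 3.66e-05 in limma).

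For complex IV, the assembly factor passed the test and the subunit did not, and the difference between their changes was not tested. COX5A, a dim probe, measured 7.05, 7.35 and 7.56 in Control fetuses and 6.88, 7.17 and 7.70 in Control lambs, and the ranges overlapped widely. Its change of -0.10 ± 0.11 did not pass the test (SE, adjusted p = 0.519 in limma), with a 95% interval from -0.34 to 0.14. This change was -0.36 with the scanner's processed signal and 0.04 with each array scaled to its 75th percentile, neither of which passed. COX15 measured 7.91, 8.25 and 8.54 in Control fetuses and 7.59, 7.74 and 7.89 in Control lambs, so the highest lamb lay just below the lowest fetus. The change was -0.51 ± 0.09 (SE, adjusted p = 0.000161 in limma), and -0.87 with the scanner's processed signal. The study listed COX5B, COX6C, COX6B1 and NDUFAB1 among the genes lower in the EAT of CORT lambs. None of the 10 probes carried these names, so these genes were not analysed here.

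In complex V, 3 of 5 probes fell. ATP5MC1 probe 1 measured 17.00, 17.30 and 17.42 in Control fetuses and 15.78, 16.02 and 16.78 in Control lambs, with no overlap. The change was -1.13 ± 0.12 (SE, adjusted p = 2.80e-06 in limma), a 2.18-fold lower level with a 95% interval of 1.82 to 2.62. ATP5MC1 probe 2 measured 16.76, 16.96 and 17.11 in Control fetuses and 14.73, 15.70 and 16.54 in Control lambs. It gave -1.23 ± 0.19 (SE, adjusted p = 6.32e-05 in limma), so the probe pair of this gene changed alike in direction and size. ATP5PO, the stalk subunit that confers sensitivity to oligomycin, measured 15.55, 15.86 and 16.19 in Control fetuses and 14.42, 14.89 and 15.15 in Control lambs, with no overlap. The change was -0.99 ± 0.10 (SE, adjusted p = 1.34e-06 in limma), or 1.99-fold.

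The other subunit c gene among the 10 probes did not pass the test. ATP5MC2 measured 16.02, 16.14 and 16.42 in Control fetuses and 15.91, 16.10 and 16.26 in Control lambs, and the groups lay almost on top of each other. Its change was -0.07 ± 0.07 (SE, adjusted p = 0.463 in limma), with a 95% interval from -0.22 to 0.08. The antisense ATP5PD probe measured 9.77, 9.95 and 10.12 in Control fetuses and 9.43, 10.22 and 10.89 in Control lambs, whose values spread on both sides of the fetal range. Its change was 0.13 ± 0.17 (SE, adjusted p = 0.573 in limma), and it was -0.00070 without Control lamb 6.

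**Figure D2:**
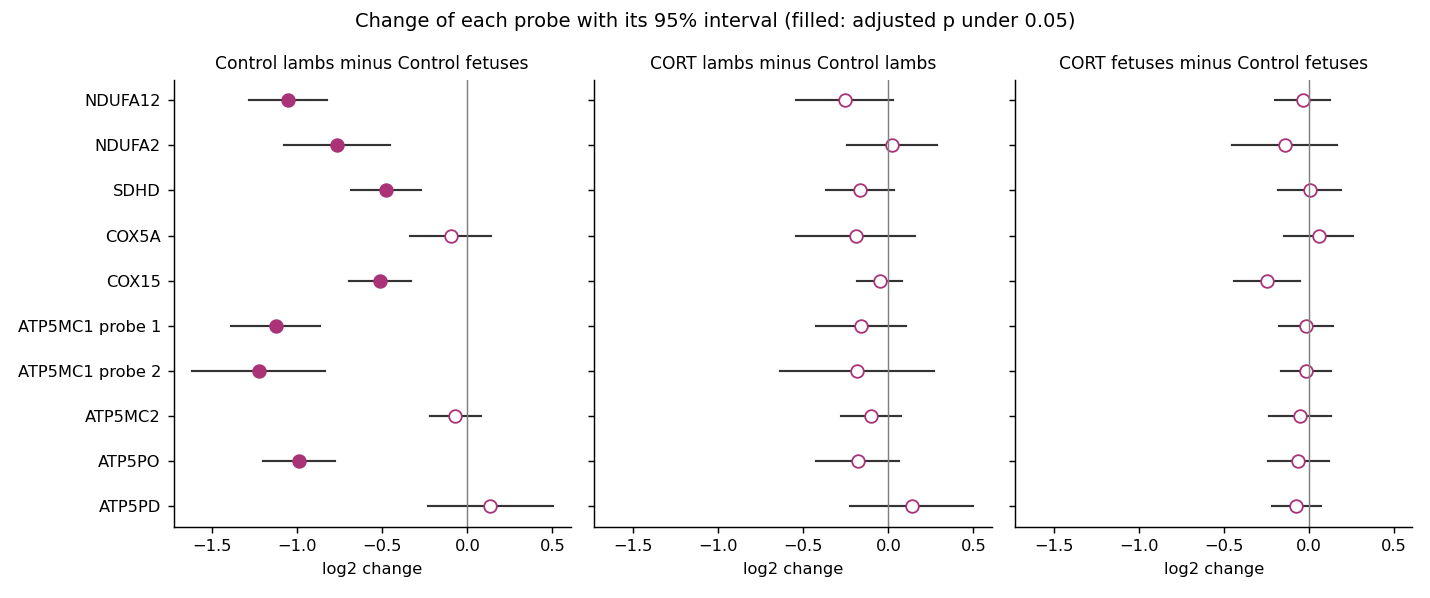
Log2 change of each probe (points) with its 95% interval (lines) in the 3 comparisons of groups, filled where the adjusted p was under 0.05. Filled points are seen only for Control lambs against Control fetuses, from -1.23 to -0.48, and open points in both cortisol comparisons lie between -0.26 and 0.14.

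The unequal change of ATP5MC1 and ATP5MC2 was tested on the ratio of their log2 signals within each array, set to 0 at the Control fetus mean. For ATP5MC1 probe 1 over ATP5MC2, the Control fetuses ran from -0.27 to 0.33 and the Control lambs from -1.39 to -0.51. The difference was -1.06 ± 0.13 (SE, exact two-sided permutation p = 0.000155 over 6435 splits, 0.000466 adjusted over 6 tests), the smallest p these group sizes can give. Probe 2 gave -1.16 ± 0.22 (SE) and the same exact permutation p. All 7 Control lambs lay below all 8 Control fetuses with either probe. Neither cortisol comparison of these ratios passed the test. CORT lambs differed from Control lambs by -0.06 and -0.08 for probes 1 and 2, and CORT fetuses from Control fetuses by 0.04 and 0.04 (adjusted exact permutation p = 0.749 in all 4). A ratio within an array shows that the genes changed unequally, not that either was constant.

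**Figure D3:**
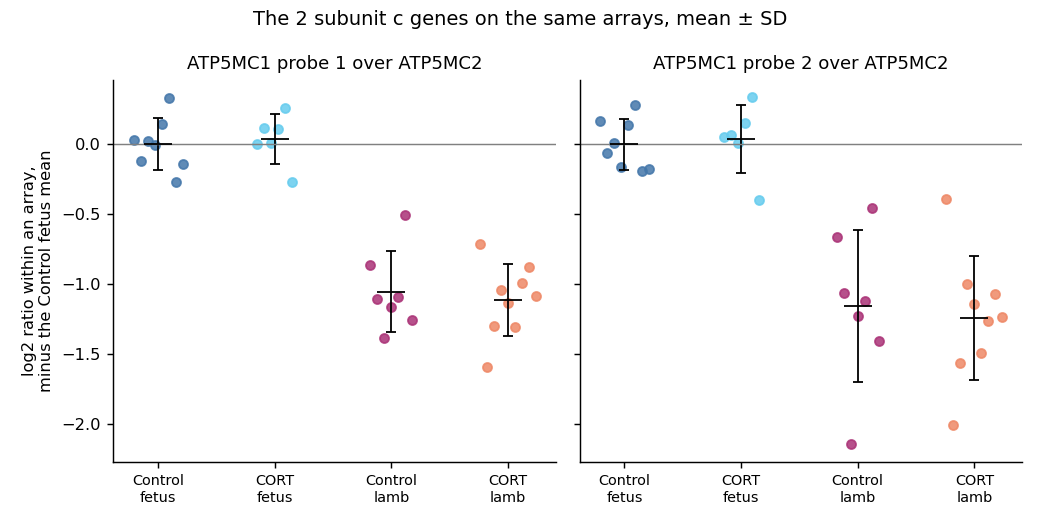
Log2 ratio of each ATP5MC1 probe over ATP5MC2 within an array, minus the Control fetus mean, for each animal (points) with group mean and SD (bars). With probe 1 the Control lambs lie between -1.39 and -0.51 and the CORT lambs between -1.60 and -0.71, below all fetuses of both groups.

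The spread between animals was described by group. The SD of a probe over the animals of a group had a median of 0.17 over the 10 probes in Control fetuses and 0.12 in CORT fetuses, against 0.28 in Control lambs and 0.22 in CORT lambs. It was higher in Control lambs than in Control fetuses for 6 of 10 probes and not for SDHD, NDUFA2, COX15 and ATP5MC2, and the difference was not tested. The widest was ATP5MC1 probe 2 in Control lambs, at 0.56. Control fetus 2 was the lowest Control fetus in 8 of the 10 probes, and Control lamb 6 was the highest Control lamb in 6 of 10.

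These animals also stood apart in muscle transcripts, for which 3 of 26 listed genes had a named probe. TNNC2, the fast skeletal troponin C, reached 17.26 in Control fetus 2, against a median of 7.24 over the Control fetuses. Myoglobin (MB), the oxygen store of heart and slow muscle, was 12.98 to 15.30 in Control fetuses and 13.60 to 16.24 in CORT fetuses. It was 9.61 to 16.59 in Control lambs and 11.11 to 15.68 in CORT lambs. The mean over MB, TNNC2 and TPM1 ran from 11.38 to 16.23 in Control fetuses and from 11.87 to 13.48 in CORT fetuses. It ran from 9.49 to 13.92 in Control lambs and from 10.28 to 13.73 in CORT lambs. TNNC2 alone had a median of 7.24 in both fetal groups, 7.36 in Control lambs and 7.22 in CORT lambs. How much muscle RNA each group held was not tested. Control lamb 6 had the highest myoglobin and the highest ATP5MC1 of its group, and Control lamb 3 the lowest of both.

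**Figure D4:**
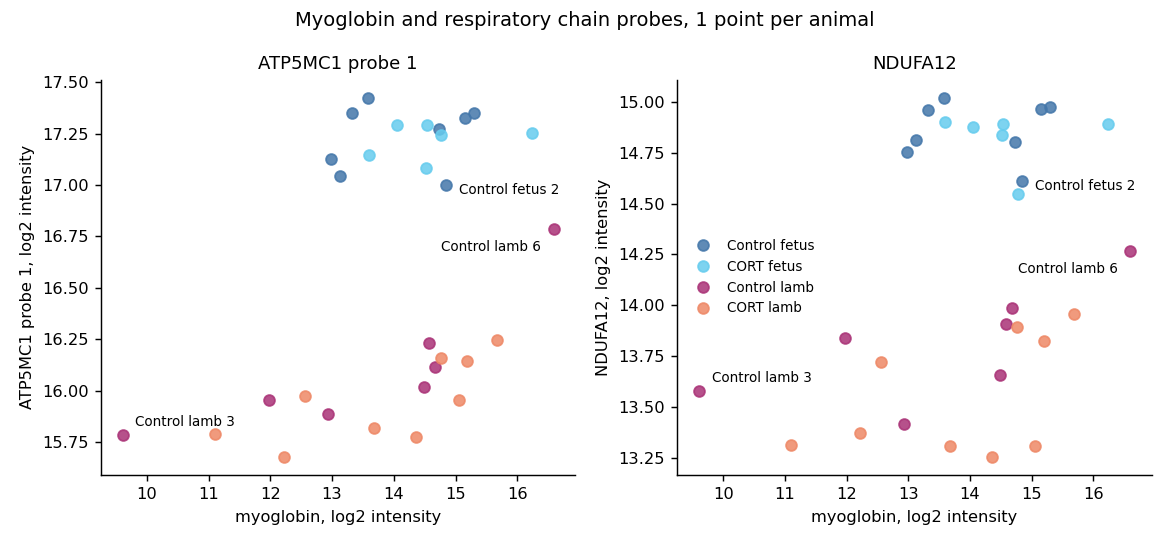
Log2 intensity of ATP5MC1 probe 1 (left) and NDUFA12 (right) against that of myoglobin in each animal (points, coloured by group). All lambs lie below all fetuses, and Control lamb 6, at a myoglobin of 16.59, is the highest lamb in both panels.

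None of the 3 muscle genes passed the test between Control lambs and Control fetuses, with changes of -0.58 ± 0.79 for MB, -0.98 ± 1.24 for TNNC2 and -0.89 ± 0.60 for TPM1 (SE, adjusted p = 0.595, 0.562 and 0.262 in limma). Without Control fetus 2 and Control lambs 3 and 6, 7 probes fell and 0 rose, with a median of -0.73. Only Controls were left out there. CORT lamb 9, with TNNC2 at 10.17, and CORT fetus 6, with MB at 16.24, were kept. With myoglobin as a covariate the counts were again 7 and 0 and the median was -0.67. Both settings were chosen after seeing the data. Myoglobin did not single out Control fetus 2, whose value of 14.84 lay within the range of the other Control fetuses. The part of muscle RNA in the falls of the respiratory chain was not tested.

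Other mitochondrial genes were counted from lists of known symbols, most of which had no named probe. Of 8 carriers and porins, 7 fell and 0 rose, against 22% and 19.3% of all tested probes. They included SLC25A5, which exchanges ADP for ATP across the inner membrane, at -2.10 ± 0.15, the outer membrane porin VDAC1 at -1.10 ± 0.11, and UCP1 at -4.28 ± 0.35 (SE, adjusted p = 3.42e-08, 1.71e-06 and 1.62e-07 in limma). UCP1 ranged from 13.79 to 15.70 in Control fetuses and from 9.33 to 11.91 in Control lambs. GPD2, the glycerol phosphate dehydrogenase that feeds electrons to ubiquinone, changed by -1.48 ± 0.16 (SE, adjusted p = 1.91e-06 in limma). Both fatty acid oxidation genes with a probe fell, and the carnitine palmitoyltransferase CPT1A changed by -2.19 ± 0.24 (SE, adjusted p = 2.77e-06 in limma). Of 3 regulators, PPARGC1A, the coactivator of mitochondrial biogenesis, fell by 1.27 ± 0.15 (SE, adjusted p = 7.91e-06 in limma), while NRF1 and GABPA, at 0.07 and 0.14, did not pass. MRPL32 of the mitochondrial ribosome fell by 0.45, and SOD2 at -0.41 did not pass. The lists of tricarboxylic acid cycle and import genes had 0 named probes.

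Markers of other cells were counted in the same comparison, in which 22% of all tested probes fell and 19.3% rose. All 4 brown adipocyte markers with a probe fell (UCP1, PPARGC1A, CPT1B and PLIN5, of which 3 are also counted above). Of 5 adipocyte markers, 2 rose, LPL by 1.70 and LEP by 0.54, while FABP4 at 0.39, PLIN1 at 0.25 and PPARG at -0.46 did not pass. All 3 fibroblast and matrix genes rose, with a median of 1.37. In the myeloid list 2 of 3 rose (FCER1G and CD14), in the endothelial list 1 of 4 fell (FLT1), and in the erythroid list 0 of 2 passed. The mean of the 3 matrix genes was 11.14 to 12.44 in Control fetuses and 13.01 to 13.45 in Control lambs. The part of these cell types in the falls of the respiratory chain was not tested.

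The comparison of CORT lambs with Control lambs asked whether maternal cortisol altered the EAT of the offspring 2 weeks after the infusion had ended. None of the respiratory chain probes taken here passed. The study reported the respiratory electron transport chain and cytochrome c oxidase activity as overrepresented among genes lower in the EAT of CORT lambs. The chain genes it named, COX5B, COX6C, COX6B1 and NDUFAB1, were not among the probes taken here. The counts that follow therefore do not test that result. At an adjusted p under 0.05, 0 of 10 probes were called, and 0% of all tested probes. At an unadjusted p under 0.05, the level the study used, limma called 0 of 10, against 3.62% of all tested probes. For no probe did the groups separate, against 0.00765% of all tested probes with CORT lambs lower and 0% with them higher. The changes ran from -0.26 to 0.14, and 8 of 10 were negative, against 51.7% of all tested probes. Their median was -0.17 beside 0.00 over all tested probes. Without the antisense ATP5PD probe 8 of 9 were negative and the median was again -0.17. With all 10 probes but without Control lamb 6 the median was -0.08.

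The 3 smallest unadjusted p-values among the negative changes were those of NDUFA12, SDHD and ATP5PO. NDUFA12 measured 13.26, 13.37 and 13.96 in the 9 CORT lambs. Of these, 5 lay between 13.26 and 13.37, below every Control lamb, and the other 4 between 13.72 and 13.96, within the Control range. The change was -0.26 ± 0.14 (SE, exact permutation p = 0.0985), with a 95% interval from -0.54 to 0.03. SDHD measured 11.13, 11.52 and 11.90 in CORT lambs, and 8 of the 9 lay below the Control lamb mean. The change was -0.17 ± 0.09 (SE, exact permutation p = 0.0995). ATP5PO measured 14.37, 14.65 and 15.12 in CORT lambs, a range that covered most of the Control lambs, and the change was -0.18 ± 0.12 (SE, exact permutation p = 0.161).

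The positive changes were those of ATP5PD, at 0.14 with a 95% interval from -0.22 to 0.50, and NDUFA2, at 0.02 with an interval from -0.24 to 0.29. The subunit c genes gave -0.16 and -0.18 for the ATP5MC1 probes and -0.10 for ATP5MC2, and their intervals lay within -0.64 and 0.27. COX5A, at -0.19, had an interval from -0.54 to 0.16. It was -0.58 with the scanner's processed signal and -0.39 with the authors' deposited values, neither of which passed. COX15, at -0.05, had an interval from -0.18 to 0.08. The intervals of all 10 probes held 0, so neither a small fall nor a small rise could be told from no change with these numbers of animals.

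The lamb arrays came from 2 slides, and the slides differed. Within slide 3, with 4 CORT and 4 Control lambs, the 10 differences had a median of 0.06 and 3 were negative. Within slide 4, with 5 CORT and 3 Control lambs, the median was -0.34 and 9 were negative. ATP5MC1 probe 1 differed by 0.05 on slide 3 and by -0.41 on slide 4, and ATP5PO by 0.11 and -0.46. NDUFA12 and SDHD were negative on both slides, at -0.03 and -0.46 for NDUFA12 and at -0.29 and -0.08 for SDHD. Slide 4 held 3 Control lambs, so its differences rest on few animals, and the difference between slides was not tested.

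**Figure D5:**
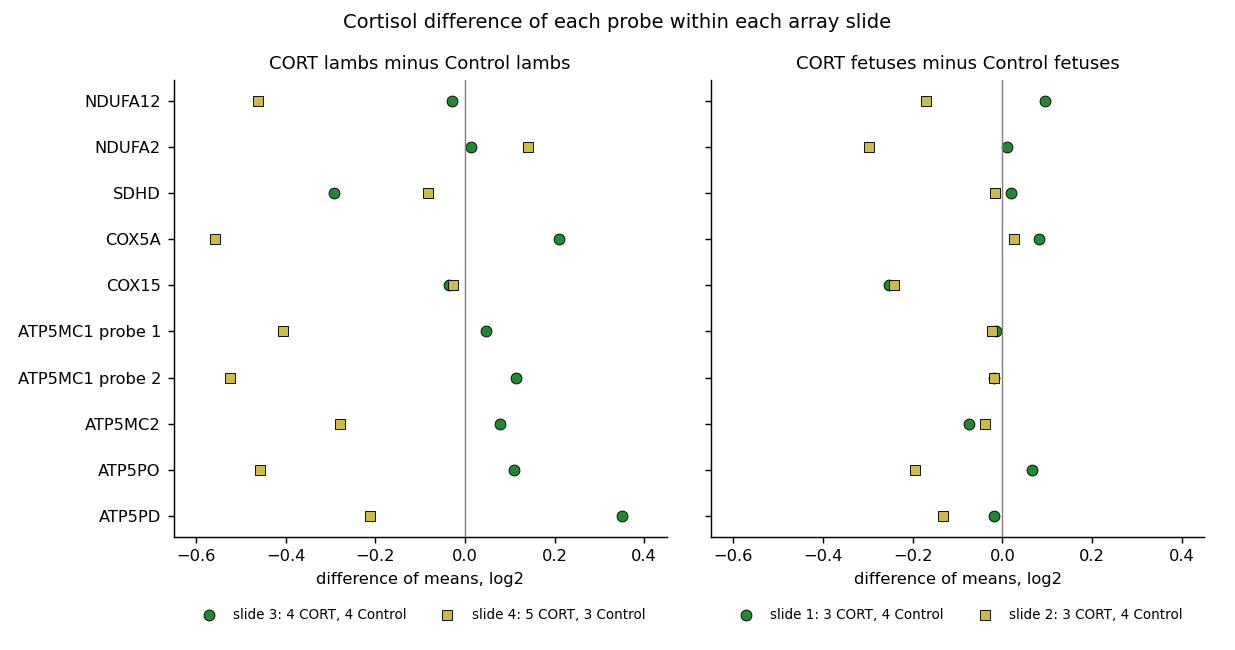
Difference of the CORT and Control means of each probe, in log2 units, within each array slide, for lambs (left) and fetuses (right). On slide 4 only NDUFA2 is positive, at 0.14, whereas on slide 3 the differences run from -0.29 to 0.35, and COX15 in fetuses is -0.25 on slide 1 and -0.24 on slide 2.

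Among the other mitochondrial genes, 0 carriers and porins passed the adjusted test in CORT lambs. Their changes were negative in 8 of 8, against 51.7% of all tested probes, with a median of -0.23. At an unadjusted p under 0.05 limma called 1, against 3.62% of all tested probes, VDAC1 at -0.29 ± 0.11 (SE). SOD2, the mitochondrial superoxide dismutase, changed by -0.41 ± 0.14 (SE) and passed the unadjusted level only. The study also listed VDAC1 and SOD2 among the genes lower in the EAT of CORT lambs. The muscle genes had changes with a median of 0.15, and 0 of 3 passed.

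The comparison of CORT fetuses with Control fetuses asked the same before birth, at the higher dose. In limma 0 of 10 probes passed at an adjusted p under 0.05, and 0% of all tested probes. At an unadjusted p under 0.05 1 probe was lower, COX15, against 1.14% of all tested probes, and 0 were higher, against 1.22%. No probe separated the groups, against 0.0153% of tested probes with CORT fetuses lower and 0% with them higher. The median change was -0.05 beside -0.01 over all tested probes, with 8 of 10 negative, against 53.5% of all tested probes.

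COX15, the heme A synthesis enzyme, measured 7.83, 8.00 and 8.17 in the 6 CORT fetuses, and all 6 lay below the Control fetus mean of 8.26, although the groups overlapped. The change was -0.25 ± 0.09 (SE, exact permutation p = 0.0233, adjusted p = 1.00 in limma), and it was -0.25 and -0.24 within slides 1 and 2. It failed the correction for all probes tested, and with each array scaled to its 75th percentile it was 0.01. NDUFA2 gave -0.14 ± 0.14 and the ATP5PD probe -0.08 ± 0.07 (SE, exact permutation p = 0.373 and 0.267). The positive changes were COX5A, at 0.05 with a 95% interval from -0.15 to 0.25, and SDHD, at 0.00 with an interval from -0.18 to 0.19.

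For the probes that fell most between fetuses and lambs, and for ATP5MC2, which did not pass there, the 95% intervals in CORT fetuses were -0.20 to 0.12 for NDUFA12, -0.18 to 0.14 and -0.16 to 0.13 for ATP5MC1 probes 1 and 2, -0.24 to 0.13 for ATP5MC2 and -0.24 to 0.11 for ATP5PO. These values depended on the scaling. With each array scaled to its 75th percentile the changes were -0.28 for NDUFA12, -0.33 and -0.34 for the ATP5MC1 probes, -0.33 for ATP5MC2 and -0.34 for ATP5PO, while the median of all probes moved to 0.28. No probe passed the adjusted test in limma under that scaling either, and ATP5MC2 passed the unadjusted level there.

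The cortisol change in lambs minus that in fetuses was tested in 1 fit over the 4 groups, and compares exposures that differ in age, dose and schedule. In limma 0 of 10 probes passed at an adjusted p under 0.05, and 0% of all tested probes. At an unadjusted p under 0.05 the count was 0 of 10, against 2.1% of all tested probes. The largest positive differences were 0.21 for ATP5PD, with a 95% interval from -0.20 to 0.62, 0.20 for COX15, from -0.02 to 0.41, and 0.17 for NDUFA2, from -0.23 to 0.57. The negative ones with the smallest p were -0.22 for NDUFA12, from -0.56 to 0.12, -0.17 for SDHD, from -0.44 to 0.10, and -0.25 for COX5A, from -0.67 to 0.17. The subunit c genes differed by -0.14, -0.17 and -0.05 for ATP5MC1 probes 1 and 2 and ATP5MC2.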

How the data were processed

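The authors hybridised labelled RNA of each animal to a one-colour sheep array and deposited the scanner files. Per the file headers and the submitters' processing notes, these are spot intensities from Agilent Feature Extraction 10.1.1.1. The deposited columns used were the mean foreground intensity, the median background intensity, the scanner's processed signal and the flag columns (other values, 0 or 1). The authors also deposited log2 values. For the 16 lamb arrays these followed the scanner values (Spearman 0.9996 to 0.9998 over 11828 probes), and for the 14 fetal arrays they did not (-0.0084 to -0.0038 over 9119 probes), so the scanner files were used for all groups and the deposited log2 values only as an alternative for lambs.

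In R 4.3.3 with limma 3.58.1, intensities were corrected by normexp with an offset of 50 and quantile normalized over 30 arrays. Outlier spots (3 to 17 per array) were left out, and at most 1 spot was saturated. Spots of a probe were averaged, and a probe was tested where on at least 6 arrays it was 10% brighter than the 95th percentile of 77 negative controls, after the methods of the study, whose cut on dim probes leaves room for other readings. The number of arrays, not sequencing depth, limits the precision. Each comparison was fitted by limma on its own groups over 13077 probes with Benjamini-Hochberg adjustment, and the difference of cortisol changes on all 4 groups. Single values were also tested by exact two-sided permutation of the animals. Replicates are separate samples in the labels, twins included, and the p-values measure the spread between animals, not between ewes. The code was tested on simulated data.

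The members and gene lists were chosen with earlier results of these data known. Given with values are, per complex, the members past the adjusted threshold between Control lambs and Control fetuses (up to 3 falls and 2 rises), in each cortisol comparison the 3 members with the smallest p in each direction, the genes named by the study and the subunit c genes. For a gene with more than 1 probe among the members the brightest stands first. Alternatives were cyclic loess, scaling to the 75th percentile, the processed signal, no brightness filter, 1 fit on all arrays, array weights, the replicate number as a block, the slide as a block, leaving out each animal, 1 probe per gene and subunits only. Leaving out 3 animals that stood apart in muscle transcripts, all of them Controls, and adding myoglobin as a covariate were chosen after seeing the data. No genome of the array's sequences was used, so no coordinates are given. Only 1383 of the 15008 probes (9.22%) carry a name found in the RefSeq table, so genes without a named probe were not analysed here.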

Additional observations from a re-analysis of the deposited data

Results flagged for a closer look

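In 3 of the 40 sets formed by 10 probes and 4 groups, 1 animal lay far from the rest of its group, and 5% of sets would do so by chance. NDUFA12 in CORT fetus 5 was 14.55, below the other CORT fetuses, and its gap to the nearest was 0.819 of the group's range, against a limit of 0.625 for 6 animals. NDUFA2 in Control fetus 2 was 13.84, below the other Control fetuses, with a gap of 0.563 of the range against a limit of 0.526 for 8 animals. ATP5MC2 in CORT fetus 6 was 16.46, above the other CORT fetuses, with a gap of 0.634 of the range against 0.625.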

How the results depend on the processing

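Between Control lambs and Control fetuses, 7 probes fell and 0 rose at an adjusted p under 0.05 in all 10 settings that refitted the probes and with any animal left out, and each of the 7 kept its call. In this comparison the slide was a random block, which cannot separate slide from age. The median change was -0.88 with the scanner's processed signal, -0.51 with 1 probe per gene and -0.77 over subunits only, and ran from -0.71 to -0.58 without single animals. Without single animals the medians ran from -0.19 to -0.08 in CORT lambs, from -0.07 to -0.02 in CORT fetuses and from -0.17 to -0.03 for the difference. The values nearest 0 in lambs and the difference came without Control lamb 6, and the fetal median also moved by over 1.5 times without Control fetus 2 (-0.07), 6 or 8 (both -0.02) or CORT fetus 5 (-0.03). Scaling each array to its 75th percentile moved the median of all probes by 0.15 and turned ATP5MC2 to 0.12 and COX5A to 0.044, or -0.03 and -0.11 relative to it, and ATP5PD ran from -0.00070 (without Control lamb 6) to 0.24 without single animals. In CORT lambs no probe passed the adjusted test under any alternative or with any animal left out, and all 10 kept their direction in the 11 other settings. The number lower at an unadjusted p under 0.05 was 1 in 1 fit on all arrays (NDUFA12), with array weights (ATP5PO) and with slide as a block (SDHD), 2 with myoglobin as a covariate (NDUFA12 and ATP5MC1 probe 1), and 0 to 2 without single animals. It was 1 without Control lamb 1 (ATP5PO), Control lamb 7 or CORT lamb 4 (NDUFA12) or CORT lamb 5 (SDHD), and 2 without CORT lamb 1 (NDUFA12 and ATP5PO). In CORT fetuses the number lower was 1 to 2 without single animals, 2 being without Control fetus 2 or the 3 animals apart in muscle transcripts (COX15 and NDUFA2). COX15 had an unadjusted p under 0.05 in 23 of 24 alternatives, the exception being percentile scaling (ATP5MC2 instead), and its adjusted p ranged from 0.922 to 1. That scaling moved the median of all probes in CORT fetuses by 0.28, gave 1 probe higher (COX5A) and a median of the 10 probes of -0.31, or -0.58 relative to that shift with 9 of 10 negative, and turned COX15 to 0.010 and SDHD to -0.23. Fetal changes also turned with cyclic loess, to 0.081 and 0.063 for ATP5MC1 probes 1 and 2, 0.070 for ATP5MC2, 0.033 for NDUFA12, 0.020 for ATP5PO and -0.030 for SDHD, and with the processed signal, to 0.0021 for ATP5MC1 probe 1 and -0.00092 for SDHD. SDHD was -0.025 with array weights and -0.049 without the 3 animals. The difference of cortisol changes had no call at an adjusted p, and 1 probe higher at an unadjusted p under 0.05, COX15, with cyclic loess, with slide as a block and without the 3 animals, and 0 to 1 without single animals (COX15 without Control fetus 2 or CORT fetus 4, ATP5PD without Control lamb 6). Percentile scaling moved its median over all probes to -0.27, gave 1 probe lower (COX5A) and a median of 0.11, and turned ATP5MC1 probe 1 to 0.21, probe 2 to 0.12, ATP5MC2 to 0.27, ATP5PO to 0.11, SDHD to 0.047, NDUFA12 to 0.0077 and COX15 to -0.065. The cause was not tested.

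Correlations of same-numbered deviations ran from -0.23 to 0.25 between Control lambs and Control fetuses, -0.06 to 0.41 in lambs and -0.19 to 0.41 in fetuses. They were not set against those of differently numbered animals, so whether the replicate numbers pair the animals was not tested. Most same-numbered animals of the cortisol comparisons shared a slide, so pairing and slide cannot be told apart there. With the replicate number as a block, 7 probes fell from Control fetuses to Control lambs with a median of -0.63, 0 passed in the other comparisons, and in CORT fetuses SDHD turned to -0.016 and COX5A to -0.0044. COX5A lay close to the brightness cut in all groups.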

Other observations

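Further probes for member genes were on the array outside the rule, because their names or descriptions did not match it. A pair for ATP5MC1, which share 59 of 60 bases and so are no independent measures, changed by -1.75 ± 0.19 and -1.95 ± 0.21 from Control fetuses to Control lambs (SE, adjusted p = 2.52e-06 and 2.68e-06 in limma), the direction of both ATP5MC1 probes described above. Both were dim in lambs, and in 6 of the 7 Control lambs their spots passed the scanner's test against background. For SDHD, a probe named only by a sequence cluster changed by -0.74 ± 0.11 (SE, adjusted p = 3.66e-05 in limma) and the Control lambs lay below all Control fetuses. Further SDHD probe A shares 17 bases with the SDHD probe only when read on the reverse complement, shown in capitals here, and as deposited it lies on the opposite strand.
SDHD further probe A reverse complement: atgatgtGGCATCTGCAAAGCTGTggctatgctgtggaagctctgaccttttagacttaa
It changed by -0.33 ± 0.10 (SE, adjusted p = 0.0120 in limma), and further SDHD probe B by -0.03 ± 0.07 (SE, adjusted p = 0.747 in limma), both at low intensities. What the antisense probe bound was not tested. In CORT lambs and CORT fetuses none of the 5 further probes passed the adjusted test in limma.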
